A study of Mus musculus with 6 samples.

Results

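The genes described here are 37 markers of macrophages, monocytes and dendritic cells, chosen by name for the known biology of these cells. They were chosen with earlier results of these data known, so their counts beside the share of all genes are descriptions. All 37 were among the 54232 genes of the count table. They are taken below in order of role, from genes shared by myeloid cells through Fc receptors, the C1q chains, macrophage and monocyte genes to dendritic cell genes and costimulatory ligands. RNA-seq compared primary uterine stromal cells from mice on day 4 of pseudopregnancy, with 3 libraries labelled WT and 3 labelled Pbrm1 cKO. Pbrm1 encodes BAF180, a subunit of the PBAF chromatin remodeling complex. The knockout mice carried floxed Pbrm1 alleles (Pbrm1 fl/fl) with PR-IRES-cre, which recombines them in cells that express the progesterone receptor, and the study describes its controls as littermates with floxed alleles and no Cre. Mice were 8 to 12 weeks old. The protocol digested 5 to 10 uterine horns in a preparation, plated the cells, replaced the medium after 4 h and lysed the attached cells 2 h later, so that stromal cells were enriched by attachment and were not sorted. The study describes the replicates in its browser tracks of these cells as 3 biological replicates. The labels do not say whether the 3 libraries of a genotype were separate preparations. The p-values therefore measure the spread between libraries, which may be technical.

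Macrophages are resident phagocytes that depend on the receptor CSF1R for survival and that clear dying cells, debris and antibody-coated particles. Dendritic cells take up antigen and present it to T cells on MHC class II together with the ligands CD80 and CD86. Both reside in the endometrial stroma, and macrophages attach to culture plastic.

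Library totals ranged from 13253575 to 18338667 counted reads. At these totals a count of 0 allows up to 0.164 to 0.226 CPM, the worth of 3 reads in a library, for counting error alone. Pbrm1 (chr14:31019138-31121592, plus strand, GRCm38) had 1354, 1385 and 1677 normalized counts in WT against 397, 459 and 451 in the Pbrm1 cKO libraries, so the deleted gene followed the labels in all 6. WT replicate 1 was the lowest of the 3 WT libraries in 30 of the 37 genes. The main counts are therefore also given without it. The share over all genes was not counted. In summed TPM (counts divided by gene length and library total) it was also lower for endothelial (69.3 against 168 and 151) and epithelial markers (224 against 357 and 344). For stromal markers it was higher (4024 against 3309 and 3440). It was picked after its values were seen, so a smaller adjusted p without it is not stronger evidence.

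Macrophage and shared myeloid genes were higher in the Pbrm1 cKO cells. Of the 37 genes, 28 were higher and 0 lower at a DESeq2 adjusted p under 0.05, where 15.9% of the 17471 genes tested were higher and 15.2% lower. A further 3 were tested and not called (Mertk, Lyve1 and Cd80), and 6 had too few reads to be tested (Cd163, Timd4, Flt3, Xcr1, Clec9a and Cd209a). Beside the count of 0 lower, Lyve1 was the 1 gene lower at an unadjusted p under 0.05 in DESeq2, and the count was 1 by edgeR and 1 by limma voom. In 30 of the 37 genes each Pbrm1 cKO library was above each WT library, among them Cd163, which was not tested. This separation was also found in 24% of all genes tested, a share that leaves out genes with too few reads. Log2 fold changes of the 28 higher genes ran from 0.94 to 3.88 with a median of 2.16, while the median of all genes tested was -0.0006. Without WT replicate 1, 28 were again higher, against 18.2% of all genes tested, and 1 (Lyve1) was lower; the median of the same 28 genes was then 1.88. In bulk RNA, more cells of a type and more RNA per cell cannot be told apart, so these values are levels in the preparation and not numbers of macrophages.

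**Figure D1:**
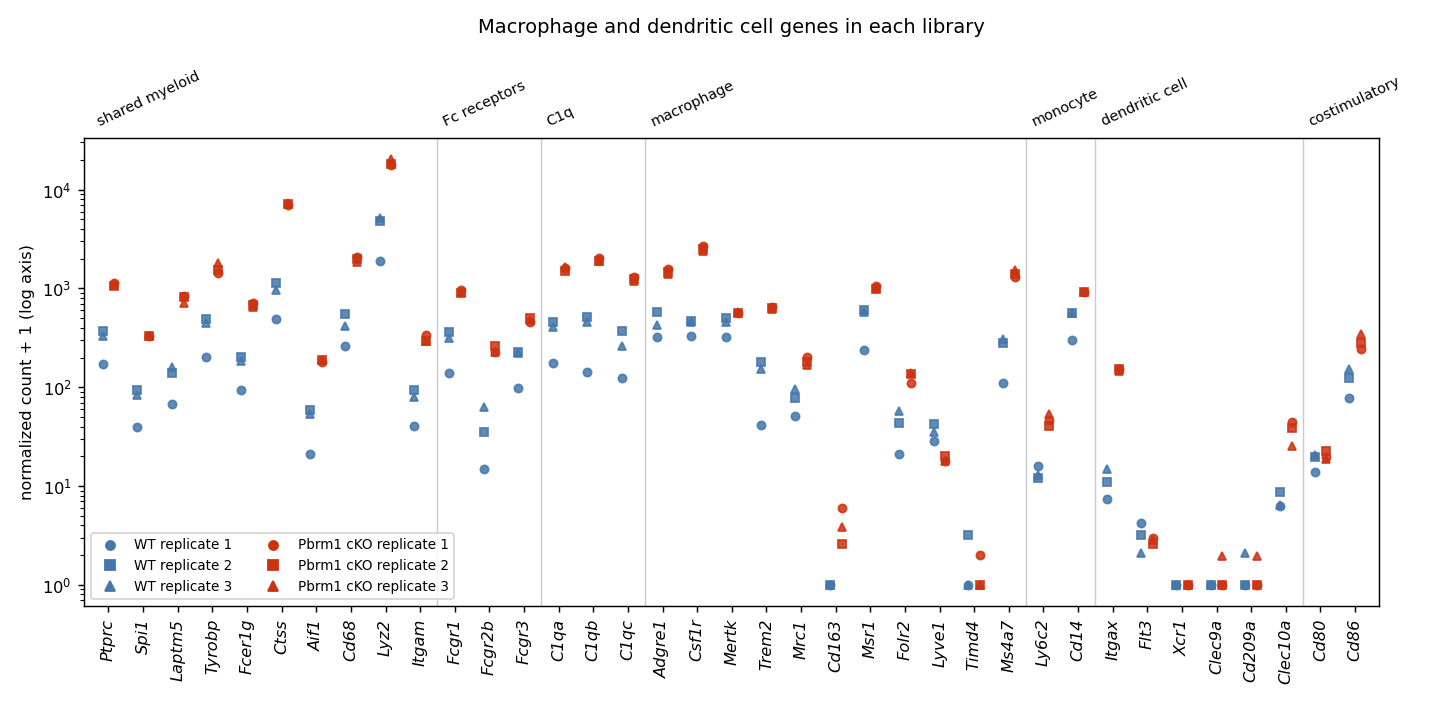
Normalized count plus 1 (log axis) of each of the 37 genes in each of the 6 libraries, grouped by role; blue, WT, and red, Pbrm1 cKO, with 1 symbol shape per replicate number. Red points lie above all blue points in 30 genes and below them in Lyve1, and WT replicate 1 (blue circle) is the lowest WT library in 30.

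All 10 genes shared by myeloid cells were higher in Pbrm1 cKO, with folds from 3.82 to 8.3, where 15.9% of all genes tested were higher. Ptprc encodes the phosphatase CD45 of nucleated blood cells. It had 172, 369.6 and 325 normalized counts in WT against 1138, 1069.9 and 1105 in the Pbrm1 cKO libraries. The groups did not overlap, and the log2 fold change was 1.93 (SE 0.22, DESeq2 adjusted p = 4.34e-17). Spi1 encodes PU.1, the transcription factor of the ETS family on which myeloid cells depend. Its normalized counts were 38.5, 93.2 and 82.2 in WT against 326, 329 and 328 in Pbrm1 cKO, where the 3 libraries were close to each other (log2 fold change 2.20, SE 0.25, DESeq2 adjusted p = 1.81e-16).

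The widest difference of the shared genes was that of Ctss (chr3:95526786-95556403, plus strand), which encodes cathepsin S, the lysosomal protease that trims the invariant chain of MHC class II. Its normalized counts were 492, 1133 and 967 in WT against 7055, 7222 and 7244 in Pbrm1 cKO. The lowest Pbrm1 cKO library thus exceeded the highest WT library by a wide margin (8.3-fold between group means, log2 fold change 3.05, SE 0.35, DESeq2 adjusted p = 7.05e-17). Laptm5, a lysosomal membrane protein of blood cells, followed with 66.3, 139.8 and 159 normalized counts in WT against 841, 817 and 711 in Pbrm1 cKO. Its groups did not overlap either, and the difference was 6.49-fold (SE 0.24 on the log2 scale).

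Tyrobp (DAP12) and Fcer1g (the Fc receptor gamma chain) encode the adaptors through which many myeloid receptors signal. They rose 4.22-fold and 4.31-fold. Aif1 (the macrophage protein IBA1) rose 4.21-fold and Cd68, a lysosomal glycoprotein, 4.84-fold. Lyz2, lysozyme, was the most abundant of the 37 genes per length in both genotypes. Its level as TPM, which divides counts by gene length and library total, was 562 ± 247 (SD, n = 3) in WT and 3081 ± 142 in Pbrm1 cKO, which was 44.6% and 44.4% of the summed TPM of all 37 genes. Reads that align equally to Lyz1 were not counted, so the level of Lyz2 is uncertain. Itgam encodes the CD11b chain of complement receptor 3. It rose 4.4-fold, on reads from the part of the gene that it does not share. Another gene on the same strand overlaps 68.7% of its exon bases, and reads there were assigned to neither, so its level is a lower value than a whole-gene count would give.

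All 3 Fc gamma receptor genes were higher, and to unequal degrees, where 15.9% of all genes tested were higher. Fcgr2b encodes the inhibitory receptor of the family. It had 13.9, 34.4 and 61.6 normalized counts in WT against 229, 259 and 229 in Pbrm1 cKO. The WT libraries spread widely but stayed below all Pbrm1 cKO libraries (log2 fold change 2.71, SE 0.35, DESeq2 adjusted p = 1.98e-13). The activating receptors Fcgr1 (log2 fold change 1.79, SE 0.26) and Fcgr3 (1.39, SE 0.25) had smaller differences. Fcgr3 had 98.3, 226 and 222 normalized counts in WT against 458, 498 and 477 in Pbrm1 cKO. The genes of this family resemble each other in sequence, so the share of each that could be counted is uncertain.

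The C1q chains, which macrophages secrete and which start the classical complement pathway, moved by nearly the same amount. C1qa, C1qb and C1qc lie side by side on chromosome 4 (chr4:136880129-136898803, minus strand). C1qb had 141, 509 and 462 normalized counts in WT against 2033, 1910.5 and 1899 in Pbrm1 cKO. C1qa had 176, 461 and 409 in WT against 1601, 1517 and 1629 in Pbrm1 cKO. Groups were apart in all 3 genes with Pbrm1 cKO higher, a separation found in 24% of all genes tested. WT replicate 1 was well under the other WT libraries in each of the 3. Log2 fold changes were 2.18 for C1qa (SE 0.40), 2.39 for C1qb (SE 0.53) and 2.30 for C1qc (SE 0.44). Without WT replicate 1 they were 1.86, 2.00 and 1.97, with DESeq2 adjusted p-values between 1.09e-79 and 1.25e-42. Leaving out that library narrowed the WT spread, so these p-values are not stronger evidence than those from all 6 libraries.

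Of the 11 macrophage genes, 7 were higher, 2 were not called and 2 were not tested, beside 15.9% of all genes tested that were higher. Csf1r, the receptor for CSF1 and IL-34, had 331, 472 and 457 normalized counts in WT against 2708, 2516 and 2385 in Pbrm1 cKO. It was 6.04-fold higher (log2 fold change 2.59, SE 0.14, DESeq2 adjusted p = 1.62e-72), the lowest adjusted p of the 37 genes, and its log2 fold change without WT replicate 1 was 2.45. Adgre1 encodes F4/80, the classical mouse macrophage antigen. It had 325, 578 and 422 normalized counts in WT against 1576, 1478 and 1387 in Pbrm1 cKO (log2 fold change 1.75, SE 0.18). The groups of both genes were well separated.

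Ms4a7 and Trem2 mark mature and lipid-handling macrophages. Ms4a7 rose 6.08-fold, from 110.1, 282 and 308 normalized counts to 1313, 1409 and 1533. Trem2 had 40.6, 179 and 151 in WT against 647, 626 and 624 in Pbrm1 cKO (5.12-fold, log2 fold change 2.36, SE 0.58, DESeq2 adjusted p = 0.000356). Its large error goes with the low value of WT replicate 1, and without that library the log2 fold change was 1.94 with an adjusted p of 1.1e-37.

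Folr2, Mrc1 and Msr1 encode receptors for uptake. Folr2, folate receptor beta, rose 3.24-fold, and Mrc1, the mannose receptor CD206, 2.45-fold. Msr1, the class A scavenger receptor, had 239, 600.4 and 574 normalized counts in WT against 1051, 996 and 1001 in Pbrm1 cKO. Although these groups did not overlap, its adjusted p was the highest of the 28 (log2 fold change 1.11, SE 0.40, DESeq2 adjusted p = 0.0204). The call was lost when any Pbrm1 cKO library was left out, with adjusted p-values of 0.104, 0.0955 and 0.0862. Without WT replicate 1 the log2 fold change was 0.79 with an adjusted p of 4.09e-12.

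Mertk (chr2:128698956-128802894, plus strand), the receptor tyrosine kinase by which macrophages engulf apoptotic cells, was not called. Its normalized counts were 321, 502 and 459 in WT against 563, 557 and 573 in Pbrm1 cKO. Here too all Pbrm1 cKO libraries were above all WT libraries, but the log2 fold change was 0.40 with a 95% interval of 0.07 to 0.73 (DESeq2 adjusted p = 0.0519). The call depended on the libraries and the tool. Leaving out 1 WT library gave an adjusted p of 0.135 (replicate 1), 0.0158 (replicate 2) or 0.043 (replicate 3), and leaving out 1 Pbrm1 cKO library gave 0.153 to 0.157. Over the other tools and filters tried at the same threshold it passed under limma voom (0.0186), under DESeq2 with TMM size factors (0.0398) and with the filterByExpr filter (0.0466), but not by edgeR (0.0514) or without independent filtering (0.0844).

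Lyve1 (chr7:110850607-110863239, minus strand), a hyaluronan receptor of perivascular macrophages and of lymphatic endothelium, ran the other way. It had 27.8, 41.1 and 34.6 normalized counts in WT against 16.8, 19.2 and 16.9 in Pbrm1 cKO. All Pbrm1 cKO libraries were below all WT libraries, with a log2 fold change of -0.96 (SE 0.40, DESeq2 adjusted p = 0.0526). With 1 library left out, the adjusted p was 0.0471 without WT replicate 1 and 0.124 to 0.219 without any other. It was 0.0118 by edgeR, 0.0155 by limma voom and 0.046 with the filterByExpr filter, but 0.058 with TMM size factors and 0.0856 without independent filtering. Of 10 endothelial markers, 3 were lower, 1 was higher and 6 were not called. Of all genes tested, 15.2% were lower and 15.9% higher. Their summed level was 69.3, 168 and 151 TPM in WT and 62.5 to 71.5 TPM in Pbrm1 cKO, so WT replicate 1 lay within the Pbrm1 cKO range. The endothelial cadherin gene Cdh5, with the lowest adjusted p of the list, had 774, 713 and 677 normalized counts in WT against 190.4, 192 and 201 in Pbrm1 cKO. It was the 1 marker with all Pbrm1 cKO libraries below all WT libraries. Unlike the sum, it was highest in WT replicate 1. The part of endothelial cells in the values of Lyve1 was not tested.

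Markers of peritoneal-type and haptoglobin-scavenging macrophages were near the limit of counting. Cd163, the haemoglobin-haptoglobin receptor, had 0 reads in each WT library and 5, 2 and 3 reads in the Pbrm1 cKO libraries. Timd4, a phosphatidylserine receptor, had no more than 3 reads in any library. No difference in either could be tested at this depth.

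Both monocyte genes were higher, where 15.9% of all genes tested were higher. Ly6c2, the surface antigen of classical monocytes, had 15, 11.1 and 11.9 normalized counts in WT against 45.4, 39.2 and 52.5 in Pbrm1 cKO (log2 fold change 1.85, SE 0.41, DESeq2 adjusted p = 6.47e-05). It was an exception to the pattern of WT replicate 1, which was the highest WT library here. Reads that Ly6c2 shares with its near-identical neighbour Ly6c1 were not counted, so its level is uncertain. Cd14, the co-receptor for lipopolysaccharide, had the smallest difference of the 28 called genes. Its normalized counts were 297, 559 and 567 in WT against 915, 911 and 914 in Pbrm1 cKO (1.92-fold, log2 fold change 0.94, SE 0.21).

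The dendritic cell genes divided. Itgax (chr7:128129547-128150657, plus strand), the CD11c integrin chain of dendritic cells that tissue macrophages also carry, had the widest difference of the 37 genes. It had 6.41, 9.99 and 14.1 normalized counts in WT against 152, 151 and 144 in Pbrm1 cKO. The Pbrm1 cKO libraries were all more than 10 times the highest WT library (14.7-fold between group means, log2 fold change 3.88, SE 0.35, DESeq2 adjusted p = 1.53e-26). Clec10a, a galactose-type lectin of dendritic cells and macrophages, had 5.34, 7.77 and 5.4 in WT against 43.4, 37.6 and 24.4 in Pbrm1 cKO (log2 fold change 2.51, SE 0.54). The genes that define conventional dendritic cells more strictly were at or near 0 in both genotypes. Xcr1, the chemokine receptor of cross-presenting dendritic cells, had no read in any library. Clec9a, the lectin of the same cells, had 1 read in all 6 libraries together, and 5 of the 37 genes had at most 3 reads in every library. Flt3, the receptor that drives dendritic cell development, had 3.21, 2.22 and 1.08 normalized counts in WT against 1.97, 1.6 and 1.88 in Pbrm1 cKO. A difference in Flt3, Xcr1, Clec9a or Cd209a was not detectable at this depth.

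The costimulatory ligands differed from each other. Cd86 had 77, 124 and 153 normalized counts in WT against 241, 279 and 342 in Pbrm1 cKO (2.43-fold, log2 fold change 1.28, SE 0.25, DESeq2 adjusted p = 2.36e-06). Cd80 had 12.8, 18.9 and 19.5 in WT against 18.7, 21.6 and 17.8 in Pbrm1 cKO, and its groups overlapped. Its log2 fold change was 0.19 with a 95% interval of -0.73 to 1.11, so that neither a rise of 2-fold nor a small fall was outside the interval.

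**Figure D2:**
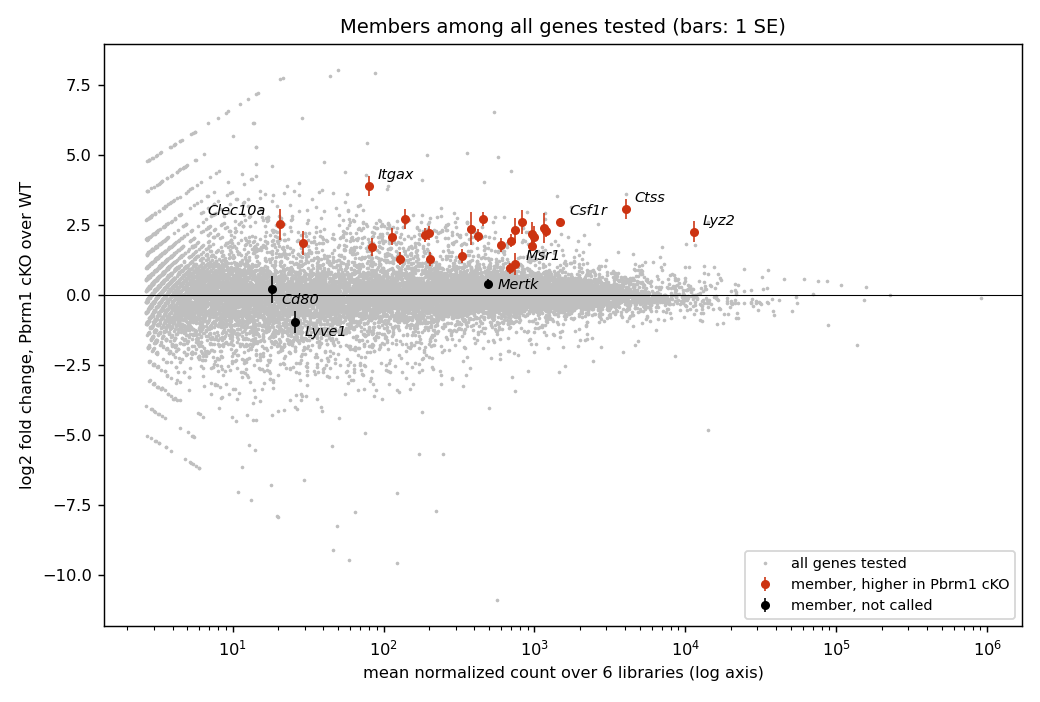
Log2 fold change of Pbrm1 cKO over WT against the mean normalized count (log axis) for all genes tested (grey) and for the 31 tested markers, red where called higher and black where not called; bars give 1 SE. The red points lie between 0.94 and 3.88, with Itgax at the top, and Lyve1 is the black point below 0.

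The promoters of the group were read because Spi1, the gene of an ETS factor, was itself among the 28. Of the 37 genes, 27 matched a RefSeq promoter (GRCm38.p6, 250 bases before to 50 after the start). The short ETS core GGAAGT was searched on both strands, as was the longer GAGGAAGT of PU.1 sites, which contains it. GGAAGT was present in 18 of the 27 genes and in 26.5% of all 27025 genes with a promoter. GAGGAAGT was present in 3 of the 27 (Ctss, C1qc and Ly6c2) and in 3.69% of all. Among the 19 with a promoter that were higher in Pbrm1 cKO, 14 held GGAAGT. It was absent from Fcer1g, Aif1, Itgam, Fcgr3 and Trem2, which were also called higher. It was present in Timd4, Flt3, Xcr1 and Cd209a, which had next to no reads. These windows were looked at after the expression values were known, and a match is a description of the letters only. The sequences below run 5′ to 3′, with GGAAGT or its reverse complement in capitals. Each ends before the RefSeq start site or the start of the counted gene, whichever comes first. They are shown for Itgax with the widest difference (chr7:128129300-128129546, plus strand), C1qb (chr4:136886201-136886450, minus strand), Ly6c2, whose match is also a GAGGAAGT (chr15:75111972-75112221, minus strand), and Mertk, which was not called and has no match (chr2:128698665-128698914, plus strand).
Itgax: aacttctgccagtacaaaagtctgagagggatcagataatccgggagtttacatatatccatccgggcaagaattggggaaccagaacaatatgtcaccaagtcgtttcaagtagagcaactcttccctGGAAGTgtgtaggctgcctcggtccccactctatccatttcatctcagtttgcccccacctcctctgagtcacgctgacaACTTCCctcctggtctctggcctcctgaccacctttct
C1qb: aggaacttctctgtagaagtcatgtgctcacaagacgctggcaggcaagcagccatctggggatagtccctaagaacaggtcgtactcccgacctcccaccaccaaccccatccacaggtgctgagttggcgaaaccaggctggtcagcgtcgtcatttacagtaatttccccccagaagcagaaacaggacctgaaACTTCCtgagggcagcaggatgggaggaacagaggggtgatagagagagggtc
Ly6c2: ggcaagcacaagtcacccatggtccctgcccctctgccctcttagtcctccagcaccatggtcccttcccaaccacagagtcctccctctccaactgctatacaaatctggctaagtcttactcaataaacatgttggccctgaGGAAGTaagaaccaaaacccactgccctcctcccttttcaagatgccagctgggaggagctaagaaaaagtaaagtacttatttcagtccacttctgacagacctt
Mertk: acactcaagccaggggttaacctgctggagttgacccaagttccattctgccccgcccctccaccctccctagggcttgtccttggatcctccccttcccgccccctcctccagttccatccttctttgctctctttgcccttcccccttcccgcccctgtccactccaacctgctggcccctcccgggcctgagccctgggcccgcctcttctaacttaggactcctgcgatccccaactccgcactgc

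Set beside Ptprc of the same library, the markers did not all keep their proportion. This ratio of TPM values is free of library scaling, and it relates each gene to the blood cell RNA of its own library. Of the 36 other genes, 14 had a higher ratio to Ptprc in all Pbrm1 cKO libraries than in any WT library, 8 had a lower ratio in all, 8 overlapped and 6 had too few reads. Of all genes tested, 1.31% had a ratio that was higher in all Pbrm1 cKO libraries and 88.4% one that was lower in all, since Ptprc itself rose. Itgax had the largest rise in ratio, from 0.142, 0.103 and 0.165 in WT to 0.509, 0.538 and 0.498 in Pbrm1 cKO, or 3.77-fold between means. Ctss rose 2.19-fold by the same ratio, from 38.5, 41.3 and 40.1 to 83.6, 91 and 88.4. WT replicate 1 was close to the other WT libraries for Ctss, unlike in the counts.

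Genes with a ratio that was lower in all Pbrm1 cKO libraries were Fcgr3, Mertk, Mrc1, Msr1, Lyve1, Cd14, Cd80 and Cd86. Mertk had ratios of 7.87, 5.73 and 5.96 in WT against 2.09, 2.2 and 2.19 in Pbrm1 cKO, 0.331 times the WT mean. Cd14 had 20.1, 17.6 and 20.3 in WT against 9.37, 9.92 and 9.63 in Pbrm1 cKO, 0.498 times the WT mean. Of these genes, Fcgr3, Mrc1, Msr1, Cd14 and Cd86 were called higher in normalized counts, but rose by less than Ptprc did. In normalized counts Mertk was above WT in all Pbrm1 cKO libraries without being called, Cd80 overlapped and Lyve1 was below WT. Adgre1 (8.93 in WT and 7.56 in Pbrm1 cKO, means of ratios), Fcgr1, Tyrobp, Lyz2, Folr2, Aif1, Ly6c2 and Clec10a overlapped between the genotypes. The ratios carry no test. How much of Cd14, Mertk or Msr1 RNA comes from cells other than blood cells was not tested.

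**Figure D3:**
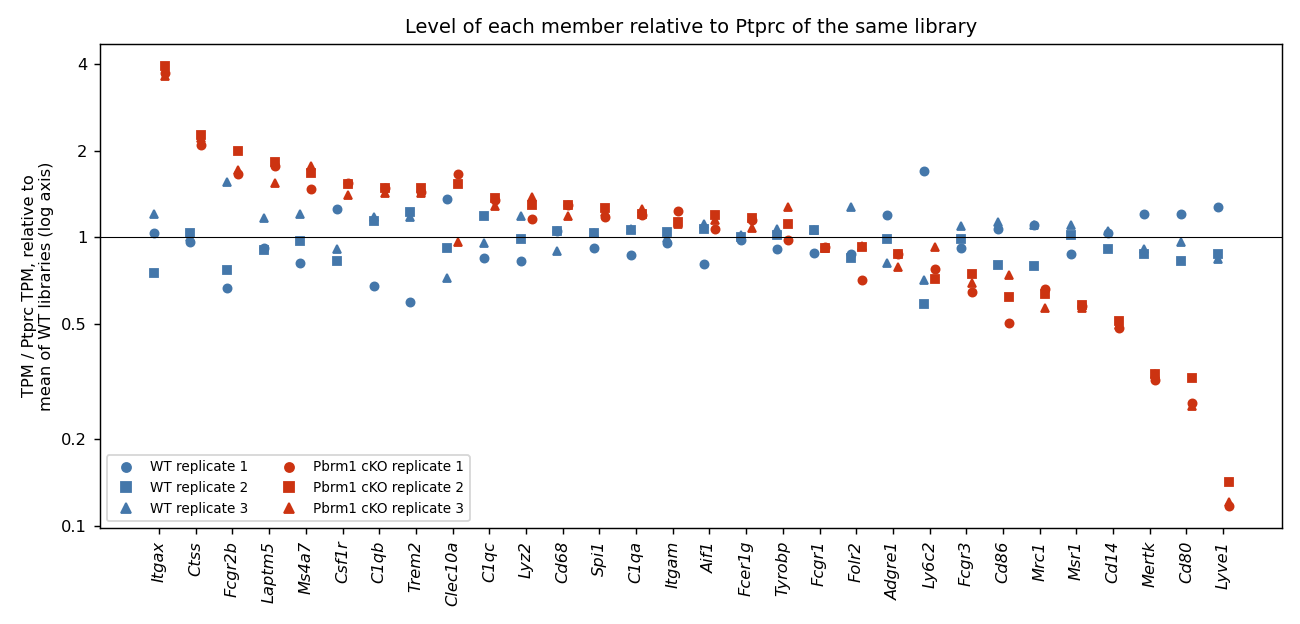
TPM of each marker divided by the TPM of Ptprc in the same library, relative to the mean of the WT libraries (log axis), for the 30 genes with enough reads, ordered from the largest to the smallest ratio; blue, WT, and red, Pbrm1 cKO. Itgax and Ctss stand highest in Pbrm1 cKO at 3.77 and 2.19, and Mertk, Cd80 and Lyve1 lowest.

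Summed over the 37 genes, the level was 680.4, 1555 and 1540.0 TPM in the WT libraries and 6916, 6874 and 7011 TPM in the Pbrm1 cKO libraries. The Pbrm1 cKO libraries were within a narrow band, and the WT libraries were not. The ratio of means was 5.51, and 4.48 without WT replicate 1. On the TPM scale every gene was shifted towards Pbrm1 cKO by 0.20 on the log2 scale relative to the DESeq2 normalized counts, and with this shift taken out the ratio was 4.79. By role, the summed TPM rose 5.95-fold for shared myeloid genes, 5.68-fold for C1q, 4.05-fold for macrophage genes, 3.63-fold for Fc receptors and 2.25-fold for monocyte genes, the last mostly Cd14. The dendritic cell sum rose 10.5-fold, from 0.906 ± 0.177 TPM to 9.49 ± 1.08 TPM (SD, n = 3), and in Pbrm1 cKO consists mainly of Itgax.

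Genes around these markers in the same pathways, none of them among the 37, were counted from lists. The lists were also chosen with earlier results of these data known. Of all genes tested, 15.9% were higher and 15.2% lower. Of 18 genes of ITAM and ITIM signalling, a list of kinases, phosphatases, adaptors, other effectors and inhibitory receptors, 18 were higher, with a median log2 fold change of 2.01. Syk, the kinase that binds phosphorylated ITAMs, had 113, 145 and 169 normalized counts in WT against 717, 653 and 638 in Pbrm1 cKO. Of 22 phagocyte effectors, 16 were higher, among them Ncf1 of the NADPH oxidase (5.38-fold) and Ctsd, cathepsin D (2.52-fold).

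Receptors and factors of the lineage moved to unequal extents. The counts of this paragraph stand beside 15.9% of all genes tested that were higher. Of 10 myeloid growth factors and receptors, 9 were tested and 5 were higher. Csf2rb, the shared chain of the GM-CSF, IL-3 and IL-5 receptors, rose 5.98-fold, and Csf3r, the G-CSF receptor, 8.93-fold. Of 16 myeloid transcription factors, 10 were higher, with Runx1, a regulator of blood cell development, at 2.13-fold. Runx1 had 711, 745 and 710 normalized counts in WT against 1619, 1524 and 1479 in Pbrm1 cKO. WT replicate 1 was thus not low for Runx1. How much of its RNA comes from cells other than blood cells was not tested. Of 9 further monocyte markers, 8 were higher. Cx3cr1, the fractalkine receptor of monocytes and resident macrophages, had 13.9, 14.4 and 15.1 normalized counts in WT against 162, 225 and 203 in Pbrm1 cKO, so that here WT replicate 1 was level with the others.

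The antigen presentation genes were also higher. All 7 MHC class II genes rose (median log2 fold change 2.90, against -0.0006 over all genes tested), from a summed 158, 259.5 and 241 TPM in WT to 2139, 2056 and 1884 TPM in Pbrm1 cKO, or 9.23-fold. Cd74, the invariant chain that cathepsin S trims, had 681, 1007 and 851 normalized counts in WT against 7426, 7067 and 6537 in Pbrm1 cKO (log2 fold change 3.05, SE 0.14, DESeq2 adjusted p = 2.3e-103). Of 11 further dendritic cell markers, 8 were tested and 4 were higher, including Wdfy4 (3.82-fold) and the maturation marker Cd83 (2.6-fold). Over all genes tested, 15.9% were higher. The sum of the 11 was 6.69 to 9.81 TPM in WT and 18.1 to 22.5 TPM in Pbrm1 cKO.

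Some markers of other blood cells were higher in the Pbrm1 cKO libraries, and many had too few reads to be tested. Of all genes tested, 15.9% were higher. Of 6 erythrocyte markers 4 were tested and 4 were higher (2 by edgeR). Their sum was 0.538, 0.556 and 2.12 TPM in WT and 61.6, 37.8 and 68.9 TPM in Pbrm1 cKO. Of 12 T and NK cell markers 5 were tested and 1 was higher (Cd3g). Their sums were 0.652 to 1.62 TPM in WT and 3.93 to 5.85 TPM in Pbrm1 cKO. Of 7 B cell markers 3 were tested and 2 were higher (Cd22 and Blk), with sums of 0.752 to 2.1 TPM and 7.62 to 8.63 TPM. Blk had too few reads for the edgeR filter, and Ms4a1, the B cell antigen CD20, had no read. Of 12 neutrophil and mast cell markers 4 were tested and 2 were higher (S100a8 and Mmp9). Cxcr2 and Fcer1a had no read, and the sums were 3.36 to 9.24 TPM and 17.1 to 25 TPM. In these 4 lists and in the myeloid lists above, 0 genes were lower by DESeq2, with 0 at an unadjusted p under 0.05, 0 by edgeR and 0 by limma voom. All 4 sums were higher in each Pbrm1 cKO library than in any WT library, and their part in the values of the markers shared by blood cells, such as Ptprc and Tyrobp, was not tested.

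The cells labelled stromal carried stromal markers in all libraries. Their sum over 14 genes was 3309 to 4024 TPM in WT and 2953 to 3347 TPM in Pbrm1 cKO, with 8 lower and 1 higher. The ratio of the sums was 0.878 on the TPM scale, where the groups overlapped, and 0.764 with the scale shift taken out. Col3a1, a fibrillar collagen, fell by 2.17 on the log2 scale and Hand2, a progesterone-responsive stromal factor, by 1.00. Of 12 epithelial markers, 11 were tested and 4 were higher, and of 8 smooth muscle markers, 7 were tested and 3 were lower. Over all genes tested, 15.9% were higher and 15.2% lower. The smooth muscle sum was 1.14 times WT on the TPM scale and 0.988 times WT with the scale shift taken out, so its direction rests on the scaling. How the lower stromal genes relate to the higher myeloid genes was not tested.

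**Figure D4:**
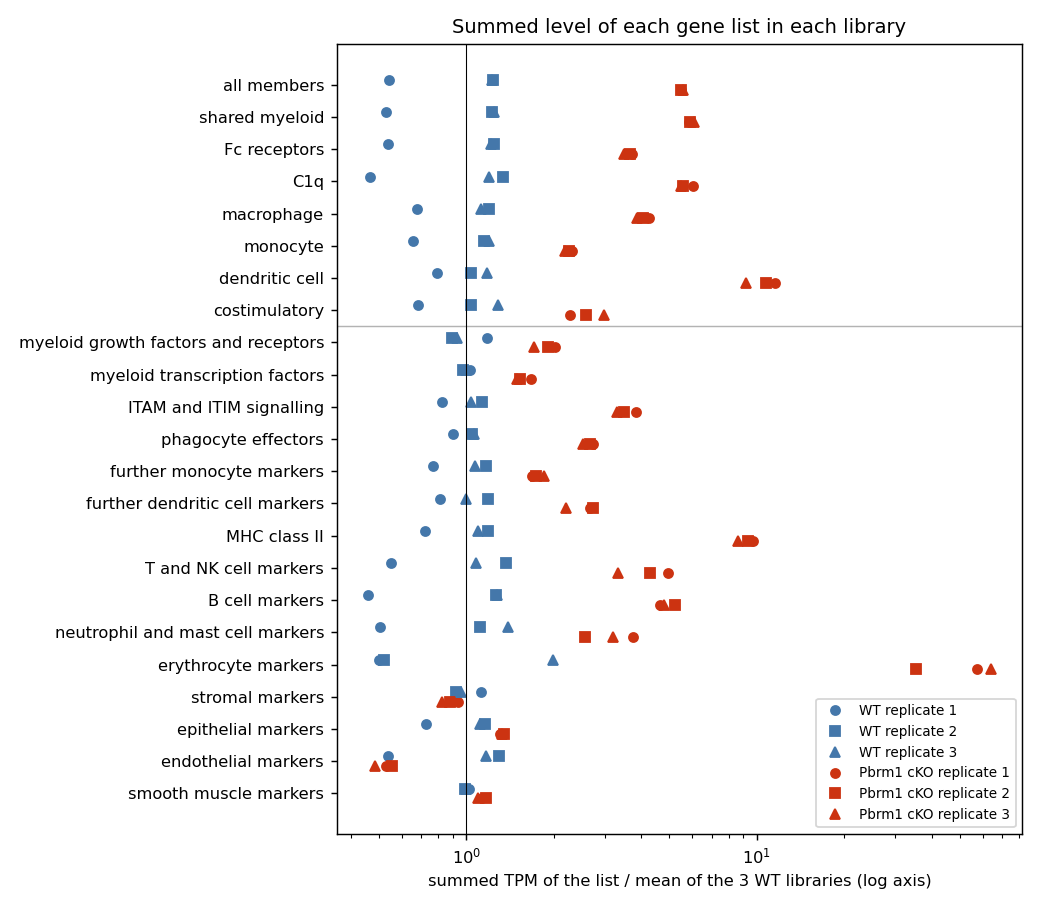
Summed TPM of each gene list in each library relative to the mean of the 3 WT libraries (log axis), the roles of the 37 genes above the grey line and the other lists below it; blue, WT, and red, Pbrm1 cKO, with 1 symbol shape per replicate number. All roles of the 37 genes lie right of the WT libraries in all Pbrm1 cKO libraries, erythrocyte markers lie farthest right, and stromal and endothelial markers do not lie right of them.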

How the data were processed

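The submitters trimmed reads with cutadapt (version 2.7), aligned them with HISAT2 (version 2.1.0) to GRCm38, and counted them per gene with featureCounts (version 1.6.4, reverse-stranded) on GENCODE M18. The authors deposited raw read counts per gene for the 6 libraries, with exon lengths. Reads with several alignments or in overlapping genes were not counted under these settings. The labels and the study's methods name different library kits (depletion after random and poly(T) priming, or poly(A) selection), which could affect RNAs without a poly(A) tail.

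From the counts, Pbrm1 cKO was compared with WT in DESeq2 (version 1.42.0) over all genes, with its median-of-ratios size factors, Wald test, independent filtering (genes under a mean of 2.67 were not tested) and Benjamini-Hochberg adjustment at 0.05. Symbols were matched for 99.7% of identifiers. Normalized counts are counts over size factors, and TPM values use the exon lengths. Errors are SD over 3 libraries or SE of the fit. Alternatives were edgeR (4.0.16, quasi-likelihood), limma voom (3.58.1), other size factors and filters, a 1.5-fold test, a replicate block and each library left out. The default DESeq2, edgeR and limma voom fits were tested on simulated data, and the other settings were not. The simulation gave both groups equal spread, whereas in the data the WT libraries spread more widely.

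Members and lists were chosen with earlier results of these data known. All 37 members are named. Of each other list, the 2 genes with the lowest adjusted p may be named, plus those with no count.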

Additional observations from a re-analysis of the deposited data

How the results depend on the processing

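The 28 genes called higher were 27 to 29 under each tool, size factor, filter, block and left-out library, and 24 when tested against a log2 fold change of 0.58, where Mrc1, Cd14, Msr1 and Cd86 were no longer called. The number lower was 1 (Lyve1) in place of 0 by edgeR, by limma voom and on genes kept by filterByExpr, and 0 to 1 with a library left out. Over all genes, 614 were higher and 486 lower in the test against 0.58, and 1924 to 2926 were higher and 1801 to 2659 lower with a library left out. No direction was reversed in the 31 tested markers. The summed monocyte level had a log2 ratio of 1.17, and 2.05 without Cd14. The dendritic cell sum had 3.39, and 2.44 without Itgax.

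The labels number the replicates of both groups alike. Same-numbered libraries did not deviate together (correlations 0.04, -0.039 and -0.0009 over 14068 genes). No pairing by number was seen, though these values cannot show that none existed. With the replicate number as a block, 28 members were higher and 0 lower, with adjusted p-values of 0.204 for Lyve1 and 0.0645 for Mertk, and over all genes 2174 were higher and 1838 lower.

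With 3 libraries a group, 1 library can move a small difference past the threshold, as for Mertk, Msr1 and Lyve1. Genes at 3 reads or fewer in every library could not be compared.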
